A study of Mus musculus with 12 samples.

Results

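The genes described here are 55 mitosis and spindle genes, from the transcription factor that switches on their programme to the proteins that separate the daughter cells. They were picked by name from the 29937 genes of the deposited table, and all 55 were among the 12036 genes tested. They were measured by RNA sequencing in 4T1 cells, a mouse mammary carcinoma line that the labels call wild-type and adherent, although the series design speaks of a cell-derived xenograft. The 12 libraries form 4 groups of 3: PBS, the controls, with a treatment label of DMSO; APAP; Oxa; and OAP2. All groups share the cell line and genotype and differ, per the labels, only in treatment. The sources used here give no dose or time of treatment. They do not say whether the libraries of a group came from separate cultures, so a p-value reflects the spread between libraries, which may be technical.

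Mitosis is the step of the cell cycle in which the copied chromosomes are packed, attached to the spindle and pulled apart. Its genes are switched on late in the cycle, largely together, by the factor FOXM1 and by a complex of MYB-family and MuvB proteins that recognises a short promoter element, the cell cycle genes homology region (CHR). Cyclin B and CDK1 start mitosis, kinetochores join chromosomes to microtubules, the spindle checkpoint holds the cell until every chromosome is attached, and separase then cuts the link between sister chromatids. In bulk RNA, fewer dividing cells and less RNA per dividing cell cannot be told apart.

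The members were all well expressed. Levels are given as FPKM, fragments mapped to a gene scaled to its transcript length and to the library's mapped fragments, as mean ± SD of n = 3 libraries where a group is meant. The mean over the 12 libraries ran from 4.23 for the checkpoint gene Mad2l1 to 70.3 for the anaphase activator Cdc20, with a median over members of 22.5, and the lowest mean count was 1273. Aurka at 57.9, Mki67 at 59.5 and Smc4 at 65.5 were also among the high ones, while Spc25 at 4.87, Iqgap3 at 6.51 and Kif14 at 6.70 were low.

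**Figure D1:**
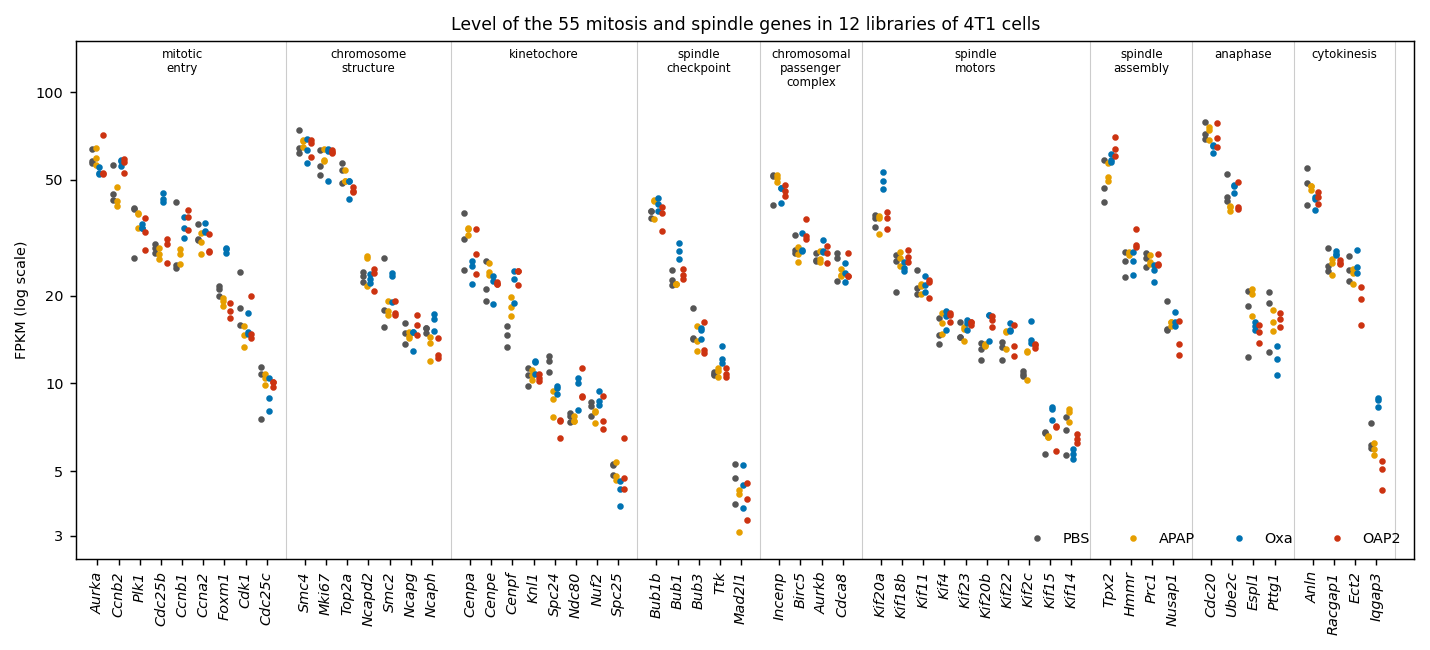
FPKM (log scale) of each of the 55 members in each of the 12 libraries, with members arranged by role and coloured by group. Members differ from each other, from a mean of 4.23 (Mad2l1) to 70.3 (Cdc20), far more than the 4 groups differ within a member.

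By summed FPKM, the members as a set stood at the same level in all 4 groups within the spread of the libraries. The FPKM summed over the 55 members was 1378, 1410.1 and 1444.5 in PBS, 1407, 1355.4 and 1433.9 in APAP, 1459.3, 1386.8 and 1520.4 in Oxa, and 1365, 1394.6 and 1490.4 in OAP2. Every group overlaps every other on this sum, in which highly expressed members weigh most. The mean log2 CPM (counts scaled to library size) gives every member the same weight. It was 7.01, 7.02 and 7.03 in PBS, and 7.06, 7.02 and 7.05 in APAP. In Oxa it was 7.09, 7.04 and 7.12, and in OAP2 6.97, 7.01 and 7.09. By this mean all 3 Oxa libraries lay above all 3 PBS libraries, the nearest by a small margin, and all other groups overlapped. This difference was not tested. The ratio of the highest to the lowest group mean had a median over members of 1.17. It was lowest for the spindle motor Kif11 at 1.03, and reached 1.5 in 5 members: Iqgap3 (1.76), Spc24 (1.64), Foxm1 (1.62), Cenpf (1.61) and Cdc25b (1.55). The highest group mean belonged to Oxa in 20 members, to OAP2 in 13, to PBS in 12 and to APAP in 10.

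The control library PBS 2 stood apart. Its mean log2(FPKM + 1) over 5 markers of red blood cells was 4.83, against at most 0.10 in the other 11 libraries, and over 8 markers of neutrophils 2.24, against at most 0.09. At lower values PBS 2 was also the highest library over 6 markers of fibroblasts (0.50, against at most 0.28). The same held for 2 markers of T and NK cells (0.15, against 0) and 4 of B cells (0.13, against at most 0.06). Endothelial markers did not set it apart (0.02, against at most 0.03). Over 7 markers of macrophages the controls differed otherwise: PBS 1 was the highest of the 12 libraries at 1.60 and PBS 3 the lowest at 0.55, with PBS 2 at 0.90. Markers of epithelial cells, the lineage of 4T1, stood between 6.77 and 7.34 in all 12. Total counts ran from 64071751 to 71500487 per library. Among the members, PBS 2 lay more than 1.25 times above the mean of PBS 1 and PBS 3 in 6, such as Ccnb1 (1.67) and Smc2 (1.62), and below 0.8 times that mean in 9, such as Espl1 (0.631) and Pttg1 (0.650). PBS 2 and OAP2 3 had the lowest sample quality weights in limma's voom fit, 0.131 and 0.239, against 0.879 to 2.31 for the rest. The part of the blood cell and fibroblast markers in any result was not tested, but results are also given without PBS 2.

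Changes below are log2 fold changes ± SE from edgeR's quasi-likelihood test over all genes, and a gene passes at a Benjamini-Hochberg adjusted p below 0.05. In Oxa against PBS, 10 of the 55 members passed, against a background of 10.1% of all genes tested: 9 rose and 1 fell. Those that rose were the transcription factor gene Foxm1, the phosphatase gene Cdc25b, the kinetochore gene Cenpf, the checkpoint kinase gene Bub1, the motors Kif2c, Kif15, Kif20a and Kif20b, and Iqgap3, by 1.25-fold to 1.51-fold. The securin gene Pttg1 fell. The median change of all 55 was 0.04, and -0.01 over all genes. The FPKM of Oxa and PBS did not overlap in 17 members (30.9%), against 29.1% of all genes.

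Among all genes 5.35% rose and 4.76% fell in this comparison, and the difference from the members' 9 and 1 was not tested. Without PBS 2 the count of members went from 10 to 19, with 13 higher and 6 lower, while the share of all genes that passed went from 10.1% to 25.5%. It was 5 without PBS 1, Oxa 1 or Oxa 3 (6.11%, 4.45% and 4.86% of all genes), and 6 without PBS 3 or Oxa 2 (5.52% and 3.96%) or on only the 6 libraries of both groups (4.35%). The 4 rises that no single left-out library ended were those of Foxm1, Cdc25b, Cenpf and Kif20a.

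In OAP2 against PBS, 4 members passed, against a background of 5.25% of all genes (2.14% higher and 3.11% lower): Cenpf and the motor gene Kif20b rose, and the kinetochore gene Spc24 and Iqgap3 fell. The median change was 0.00, as over all genes, and 12 members (21.8%) had groups that did not overlap, against 18.7% of all genes. At an unadjusted p under 0.05 there were 13 of the 55 members, and 2499 of the 12036 genes. Without PBS 2 the count was 12, with 7 higher and 5 lower, where 16.4% of all genes passed, and fitted on only the 6 libraries of both groups it was 0, where 0.316% did. Leaving out PBS 1, PBS 3, APAP 1, APAP 3, Oxa 1, Oxa 3 or OAP2 1 gave 2, with 2.09% to 4.33% of all genes.

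OAP2 against Oxa gave 8 members past the threshold, against 12.9% of all genes, and all 8 were lower in OAP2, while 6.02% of all genes were higher and 6.91% lower. They were Foxm1, Cdc25b, the condensin gene Ncaph, Spc24, Bub1, Kif20a, Ect2 and Iqgap3. The median change was -0.02, and 16 members (29.1%) did not overlap between the groups, against 36.1% of all genes. Leaving out any of Oxa 1, Oxa 2, Oxa 3, OAP2 1 or OAP2 2 gave 4 members, all lower, with 5.72% to 8.97% of all genes, and the fit without PBS 2 gave 11, of which 2 were higher, with 22.8% of all genes.

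Oxa against APAP gave 9 members, against a background of 15.4% (8.21% higher and 7.18% lower): Foxm1, Ccnb2, Cdc25b, Bub1, Kif20a and Iqgap3 rose, and Cenpa, Kif14 and Pttg1 fell. The count was 15 without PBS 2 (27.7% of all genes), 5 without APAP 3 or Oxa 3 (7.75% and 8.17%), and 23 on only the 6 libraries of both groups (36.6%). Non-overlapping groups were seen in 31 members (56.4%), against 47.8% of all genes. In OAP2 against APAP 0 members passed in edgeR, against a background of 0.474% (0.274% higher and 0.199% lower), with 12 members and 1835 of all genes at an unadjusted p under 0.05. DESeq2 called 0 members, with 4.2% of all genes, and edgeR without PBS 2 called 4, with 7.61% of all genes. In 20 members (36.4%) the groups did not overlap, against 25.7% of all genes.

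In APAP against PBS 0 members passed in edgeR, where 0.0166% of all genes did. An unadjusted p under 0.05 was found for 4 members and 1103 of all genes. The DESeq2 Wald test found 1 member, with 0.806% of all genes, and limma on log2(FPKM + 1) found 0, with 0.0166%. The members nearest the threshold were Spc24 at -0.40 ± 0.11 (adjusted p = 0.296) and Cenpf at 0.37 ± 0.11 (adjusted p = 0.339). The comparisons share groups with each other: every comparison with PBS uses the same 3 control libraries, and every one with Oxa the same 3 Oxa libraries.

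**Figure D2:**
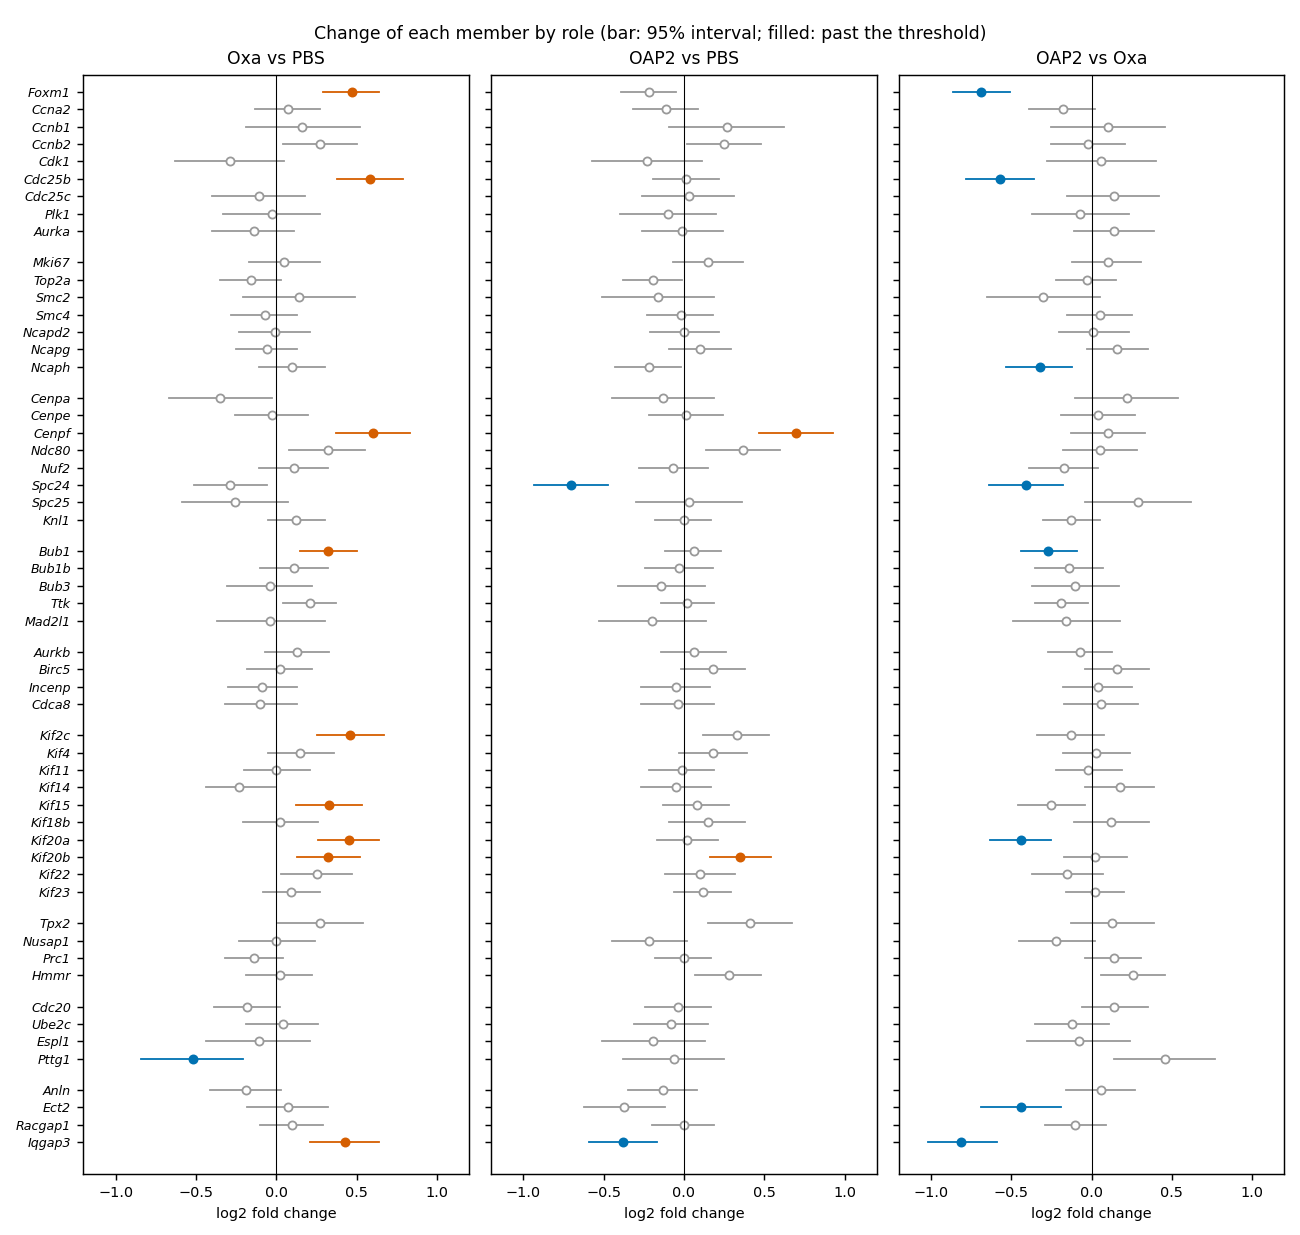
Log2 fold change of each member, ordered by role, in Oxa against PBS, OAP2 against PBS and OAP2 against Oxa; bars are 95% intervals, filled points passed the threshold (orange higher, blue lower). Most intervals span 0, and Foxm1, Cdc25b, Kif20a and Iqgap3 lie to the right in Oxa against PBS and to the left in OAP2 against Oxa.

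Of the 9 genes of mitotic entry, Foxm1, Cdc25b and Ccnb2 passed in at least 1 comparison. Foxm1 encodes the transcription factor that activates many genes of late G2 and mitosis. Its FPKM was 21.0, 20 and 21.6 in PBS, 19.1, 18.4 and 19.7 in APAP, 28.0, 29.2 and 29.0 in Oxa, and 17.7, 18.9 and 16.7 in OAP2. The 3 Oxa libraries were the highest of the 12 and lay clear of all others. PBS lay above all libraries of APAP and OAP2, and these 2 groups overlapped. Foxm1 rose in Oxa by 0.47 ± 0.08 over PBS (adjusted p = 0.00511) and by 0.56 ± 0.08 over APAP (adjusted p = 0.00157), and was lower in OAP2 than in Oxa (-0.69 ± 0.08, adjusted p = 0.000325). Against PBS the OAP2 value was -0.22 (adjusted p = 0.134), and without PBS 2 it was -0.25 (adjusted p = 0.0476).

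Cdc25b encodes a phosphatase that removes inhibitory phosphates from CDK1. Its FPKM was 30.0, 29.1 and 28.0 in PBS, 29.2, 26.8 and 27.8 in APAP, 42.9, 45.0 and 41.9 in Oxa, and 30.1, 31.3 and 25.8 in OAP2. Oxa lay above all other libraries, and PBS, APAP and OAP2 overlapped each other. The change was 0.58 ± 0.10 over PBS (adjusted p = 0.00412), 0.60 ± 0.10 over APAP (adjusted p = 0.00226) and -0.57 ± 0.10 for OAP2 against Oxa (adjusted p = 0.00235). Its paralog Cdc25c passed in no comparison with all libraries, with 9.13 ± 1.22 in Oxa and 9.89 ± 2.08 in PBS. Oxa against PBS gave -0.11 for Cdc25c, and without PBS 2 it passed as lower in Oxa (-0.27, adjusted p = 0.0453). Cdc25b overlaps Spef1 on the opposite strand, which had a mean FPKM of 2.00, and whether counting used the strand is not stated in the sources.

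Ccnb2, a B-type cyclin that activates CDK1, had an FPKM of 42.6, 56.1 and 44.5 in PBS, 40.7, 42.3 and 47.3 in APAP, 57.9, 55.8 and 58.4 in Oxa, and 52.7, 57.4 and 58.7 in OAP2. The 3 Oxa libraries lay above all 3 of APAP, and PBS 2 lay among the Oxa values, apart from PBS 1 and PBS 3. Ccnb2 rose in Oxa over APAP by 0.37 ± 0.11 (adjusted p = 0.0340), a call that 6 of the 12 left-out libraries ended, with an adjusted p of up to 0.118 without APAP 1. Without PBS 2 it also passed in Oxa against PBS (0.41, adjusted p = 0.00387) and in OAP2 against PBS (0.39, adjusted p = 0.00859). In that refit Ccnb2 was higher in OAP2 than in APAP as well (0.35, adjusted p = 0.0178). Its partner Ccnb1 showed the same library apart, with 25.4, 41.8 and 24.8 in PBS, and 34.2, 31.5 and 37.1 in Oxa. With all libraries Ccnb1 was at 0.16 in Oxa against PBS (adjusted p = 0.562), and without PBS 2 at 0.46 (adjusted p = 0.00313). In OAP2 against PBS it was at 0.27 (adjusted p = 0.396), and without PBS 2 at 0.56 (adjusted p = 0.00154). Without PBS 2 Ccnb1 also passed as higher in OAP2 (0.39, adjusted p = 0.0144) and in Oxa (0.29, adjusted p = 0.019) than in APAP. Ccnb1 and the other entry genes, Ccna2, Cdk1, Cdc25c, Plk1 and Aurka, passed in none of the 6 comparisons with all libraries. Cdk1, the kinase itself, had the lowest value among them at -0.37 ± 0.16 in APAP against PBS (adjusted p = 0.510).

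Among the 7 genes of chromosome structure, 1 passed. Ncaph, a subunit that closes the condensin I ring, had an FPKM of 14.9, 15.5 and 15.5 in PBS, 14.4, 11.9 and 13.8 in APAP, 17.3, 15.1 and 16.6 in Oxa, and 12.5, 12.2 and 14.3 in OAP2. OAP2 lay below Oxa in every library, by a small margin, and the change was -0.32 ± 0.09 (adjusted p = 0.0400). That call ended without any of 7 libraries, with an adjusted p of up to 0.206 without Oxa 1. The other condensin genes Smc2, Smc4, Ncapd2 and Ncapg, the topoisomerase gene Top2a and the proliferation marker Mki67 passed in no comparison with all libraries. Their values lay between -0.30 (Smc2, OAP2 against Oxa, adjusted p = 0.251) and 0.26 (Smc2, Oxa against APAP, adjusted p = 0.301). Of these other genes, only Smc2 passed without PBS 2. It did so in Oxa against PBS, where it went from 0.14 to 0.41 (adjusted p = 0.0110). It also passed in OAP2 against Oxa (adjusted p = 0.0307) and in Oxa against APAP (adjusted p = 0.0497). Mki67 was at 56.9 ± 5.83 in PBS, 60.1 ± 3.22 in APAP, 58.6 ± 7.79 in Oxa and 62.4 ± 0.669 in OAP2, with overlapping groups.

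Of the 8 kinetochore genes, Cenpf, Spc24 and Cenpa passed in at least 1 comparison and 5 passed in none. Cenpf, a large protein of the outer kinetochore and nuclear envelope, had an FPKM of 13.3, 15.7 and 14.7 in PBS, 19.8, 17 and 18.3 in APAP, 24.3, 18.8 and 22.9 in Oxa, and 24.3, 24.3 and 21.7 in OAP2. All 9 treated libraries lay above all 3 controls, and Oxa and OAP2 overlapped. Cenpf rose by 0.70 ± 0.11 in OAP2 (adjusted p = 0.00291) and by 0.60 ± 0.11 in Oxa (adjusted p = 0.00569) over PBS. OAP2 against Oxa gave 0.10, with a 95% interval from -0.13 to 0.33. No single left-out library ended either call, but the OAP2 call did not pass when only the 6 libraries of both groups were fitted.

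Spc24, a subunit of the NDC80 complex that binds microtubules, went the other way. Its FPKM was 10.9, 11.9 and 12.4 in PBS, 7.67, 9.42 and 8.83 in APAP, 9.78, 9.21 and 9.66 in Oxa, and 7.42, 6.49 and 7.51 in OAP2. PBS was above all 9 treated libraries, and OAP2 below all others. Spc24 fell in OAP2 by 0.70 ± 0.11 against PBS (adjusted p = 0.00303) and was lower than in Oxa (-0.41 ± 0.11, adjusted p = 0.0233). The second of these calls ended without any of 5 libraries (adjusted p up to 0.110, without Oxa 1), and the first did not pass on the 6 libraries of both groups alone. None of the other 3 subunits of the same complex passed: OAP2 against PBS gave 0.37 ± 0.11 for Ndc80 (adjusted p = 0.0684), -0.07 for Nuf2 and 0.03 for Spc25. Without PBS 2 Ndc80 passed as higher in OAP2 than in PBS (0.38, adjusted p = 0.0418) and in Oxa than in APAP (0.30, adjusted p = 0.0462).

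Cenpa, the histone H3 variant that marks the centromere, had an FPKM of 31.4, 24.5 and 38.4 in PBS, 34.2, 32.3 and 33.8 in APAP, 26.3, 21.9 and 25.3 in Oxa, and 33.8, 27.8 and 23.8 in OAP2. Oxa lay below APAP in every library, while PBS and OAP2 were wide and overlapped both. Cenpa was lower in Oxa than in APAP (-0.48 ± 0.15, adjusted p = 0.0428), a call that ended without any of 7 libraries (adjusted p up to 0.139, without Oxa 2). Without PBS 2 it also passed in Oxa against PBS, at -0.50 (adjusted p = 0.0101). Cenpe, Ndc80, Nuf2, Spc25 and Knl1 passed in no comparison with all libraries.

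Of the 5 spindle checkpoint genes only the kinase gene Bub1 passed. Its FPKM was 21.8, 24.5 and 22.6 in PBS, 21.9, 22.0 and 22.0 in APAP, 28.5, 26.8 and 30.4 in Oxa, and 22.8, 24.6 and 23.5 in OAP2. Oxa was above the other 9 libraries, which lay close together. Bub1 rose in Oxa by 0.32 ± 0.08 over PBS (adjusted p = 0.0240) and 0.35 ± 0.08 over APAP (adjusted p = 0.0128), and OAP2 was lower than Oxa (-0.27 ± 0.08, adjusted p = 0.0453). Leaving out Oxa 3 ended all 3 calls, with adjusted p of 0.107, 0.0605 and 0.199, and 5, 2 and 10 of the 12 left-out libraries ended them. Ttk, another checkpoint kinase, was at 0.21 ± 0.08 in Oxa against PBS (adjusted p = 0.0974), and Bub1b, Bub3 and Mad2l1 passed in no comparison.

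The chromosomal passenger complex, which corrects wrong attachments of chromosomes, had no member past the threshold in any comparison. Its 4 genes are the kinase gene Aurkb, the scaffold Incenp, survivin (Birc5) and borealin (Cdca8). Birc5 had the smallest p, in OAP2 against APAP. Its FPKM was 28.8, 32.3 and 28.1 in PBS, 27.8, 26.0 and 29.3 in APAP, 28.8, 28.5 and 32.7 in Oxa, and 32.1, 31.4 and 36.6 in OAP2. OAP2 lay above APAP in every library and overlapped the other groups, and the change against APAP was 0.24 ± 0.09 (adjusted p = 0.238). The summed FPKM of the 4 genes was 130.6 ± 7.4 in PBS, 129.3 ± 3.3 in APAP, 128.4 ± 4.6 in Oxa and 132.1 ± 8.0 in OAP2, differences within the spread.

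Spindle motors, kinesins that slide or shorten microtubules and carry cargo, are the largest role with 10 members. In Oxa against PBS 4 of 10 rose (Kif2c, Kif15, Kif20a, Kif20b), where 5.35% of all genes did, and 9 of 10 had a positive value, as had 5825 of the 12036 genes. Positive values were as common against the same controls in APAP (9 of 10, and 5915 of all genes) and nearly so in OAP2 (8 of 10, and 6010). There 0 motors passed in APAP and 1 in OAP2. The calls of Kif15 and Kif20b were ended by 9 and 7 of the 12 left-out libraries. Their summed FPKM was 158.8, 164.3 and 166.8 in PBS and 191.1, 179.7 and 197.4 in Oxa, with no overlap, and 176.3, 157.5 and 173.5 in APAP and 167.9, 175.5 and 182.0 in OAP2.

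Kif20a, a kinesin of the central spindle, had an FPKM of 34.5, 37.8 and 37.0 in PBS, 37.5, 32.5 and 36.9 in APAP, 49.6, 46.6 and 53.0 in Oxa, and 33.9, 36.9 and 38.7 in OAP2. Oxa again lay above all 9 other libraries, which overlapped. Kif20a rose in Oxa by 0.45 ± 0.09 over PBS (adjusted p = 0.00813) and by 0.45 ± 0.09 over APAP (adjusted p = 0.00616), and OAP2 stood at -0.44 ± 0.09 against Oxa (adjusted p = 0.00666). It overlaps Cdc23 on the opposite strand, which had a mean FPKM of 7.64 and was itself lower in OAP2 than in Oxa (-0.27 ± 0.08, adjusted p = 0.0371).

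Its relative Kif20b, which acts in the last steps of cytokinesis, had an FPKM of 12, 13.1 and 13.8 in PBS, 13.6, 13.5 and 13.4 in APAP, 17.2, 14.0 and 17.2 in Oxa, and 15.6, 16.5 and 17 in OAP2. Oxa and OAP2 both lay above PBS, with Oxa 2 close to the controls. Kif20b rose by 0.35 ± 0.09 in OAP2 (adjusted p = 0.0377) and by 0.32 ± 0.09 in Oxa (adjusted p = 0.0366) over PBS. Of the 12 left-out libraries 10 ended the OAP2 call (adjusted p up to 0.115, without PBS 1) and 7 the Oxa call (up to 0.163, without Oxa 1).

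Kif2c, a kinesin that takes microtubules apart at the centromere, had an FPKM of 10.6, 10.8 and 11 in PBS, 12.8, 10.3 and 12.9 in APAP, 14.1, 13.8 and 16.4 in Oxa, and 13.5, 13.2 and 13.7 in OAP2. Both Oxa and OAP2 lay above the 3 controls, which were close together. Kif2c rose in Oxa by 0.46 ± 0.10 (adjusted p = 0.0108, and 0.0611 without Oxa 3), and OAP2 against PBS gave 0.33 ± 0.10 (adjusted p = 0.0684, and 0.0423 without PBS 2).

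Kif15, a motor that helps hold the spindle poles apart, had an FPKM of 5.70, 6.75 and 6.78 in PBS, 6.53, 6.62 and 6.52 in APAP, 8.18, 7.49 and 8.32 in Oxa, and 7.10, 7.14 and 5.85 in OAP2. It rose in Oxa over PBS by 0.33 ± 0.10 (adjusted p = 0.0455), which ended without any of 9 libraries (adjusted p up to 0.155, without PBS 1). Oxa was above all other libraries, as for Kif20a. Kif14, a kinesin needed for cytokinesis, ran against the other motors. Its FPKM was 6.91, 5.68 and 7.66 in PBS, 8.16, 7.37 and 7.99 in APAP, 5.73, 5.52 and 5.95 in Oxa, and 6.22, 6.70 and 6.45 in OAP2. Oxa lay below APAP in every library, with a change of -0.48 ± 0.10 (adjusted p = 0.00810) that no left-out library ended. Against PBS the Oxa value was -0.23 ± 0.10 (adjusted p = 0.165), and without PBS 2 it was -0.34 (adjusted p = 0.00810). Without PBS 2 Kif14 also passed as lower in OAP2 than in APAP (-0.31, adjusted p = 0.0235). Kif4, Kif11, Kif18b, Kif22 and Kif23 passed in no comparison, with values between -0.15 and 0.25, both Kif22.

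None of the 4 spindle assembly factors passed with all libraries. Tpx2, which activates Aurora A on the spindle, had the smallest p. Its FPKM was 47.0, 58.3 and 42.0 in PBS, 56.9, 49.4 and 51.2 in APAP, 58.3, 57.7 and 61.5 in Oxa, and 60.2, 63.6 and 70.2 in OAP2. OAP2 lay above PBS in every library, PBS 2 again being the highest control. OAP2 against PBS gave 0.41 ± 0.12 (adjusted p = 0.0704), and without PBS 2 Tpx2 passed both there (0.55, adjusted p = 0.00350) and in Oxa against PBS (0.42, adjusted p = 0.0102). Hmmr, a microtubule and hyaluronan binding protein, was at 0.28 ± 0.09 in OAP2 against PBS (adjusted p = 0.112) and passed without PBS 2 in OAP2 against Oxa (0.26, adjusted p = 0.0287), and Nusap1 and Prc1 passed in no comparison.

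At anaphase, Pttg1 encodes securin, the inhibitor that the anaphase-promoting complex removes to free separase. Its FPKM was 18.8, 12.8 and 20.6 in PBS, 16.2, 15.1 and 17.8 in APAP, 12.1, 10.7 and 13.4 in Oxa, and 17.4, 15.6 and 16.6 in OAP2. Oxa was below APAP and OAP2 in every library, but overlapped PBS, as PBS 2 lay between Oxa 1 and Oxa 3. Pttg1 fell in Oxa by 0.52 ± 0.15 against PBS (adjusted p = 0.0389) and was lower than in APAP (-0.47 ± 0.15, adjusted p = 0.0436). OAP2 against Oxa gave 0.46 ± 0.15 (adjusted p = 0.0556, and 0.00243 without PBS 2). The calls ended without any of 10 and of 8 libraries (adjusted p up to 0.142 and 0.153, both without Oxa 2). The separase gene Espl1, the activator Cdc20 and the ubiquitin-conjugating enzyme gene Ube2c passed in no comparison with all libraries. Without PBS 2 Espl1 passed in 4 comparisons: as lower in OAP2 (-0.38, adjusted p = 0.0168) and in Oxa (-0.30, adjusted p = 0.0338) than in PBS, and as lower in OAP2 (-0.41, adjusted p = 0.0145) and in Oxa (-0.34, adjusted p = 0.0115) than in APAP.

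Of the 4 cytokinesis genes, Iqgap3 and Ect2 passed. Iqgap3, a scaffold of the IQGAP family that binds actin regulators, spread most among all members. Its FPKM was 6, 6.13 and 7.32 in PBS, 5.66, 5.95 and 6.22 in APAP, 8.89, 8.32 and 8.79 in Oxa, and 5.09, 5.40 and 4.30 in OAP2. Oxa lay above all other libraries and OAP2 below all others, with PBS and APAP overlapping in between. Iqgap3 rose in Oxa by 0.43 ± 0.10 over PBS (adjusted p = 0.0168) and by 0.51 ± 0.10 over APAP (adjusted p = 0.00552). It was lower in OAP2 than in Oxa (-0.81 ± 0.10, adjusted p = 0.000439), and lower than in PBS (-0.38 ± 0.10, adjusted p = 0.0418). The Oxa against PBS call ended without any of 3 libraries (adjusted p up to 0.0611, without Oxa 1) and the OAP2 against PBS call without any of 10 (up to 0.136, without PBS 3).

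Ect2, the exchange factor that activates RhoA at the cleavage furrow, had an FPKM of 24.5, 22.5 and 27.3 in PBS, 22.0, 24.6 and 23.9 in APAP, 24.0, 25.0 and 28.6 in Oxa, and 15.9, 19.5 and 21.4 in OAP2. OAP2 lay below all 9 other libraries. The change was -0.44 ± 0.12 against Oxa (adjusted p = 0.0247, up to 0.127 without Oxa 3, and ended by 5 libraries) and -0.37 ± 0.12 against PBS (adjusted p = 0.0808, and 0.0219 without PBS 2). Anln and Racgap1 passed in no comparison with all libraries, and without PBS 2 Anln passed as lower in Oxa than in PBS (-0.29, adjusted p = 0.0218).

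**Figure D3:**
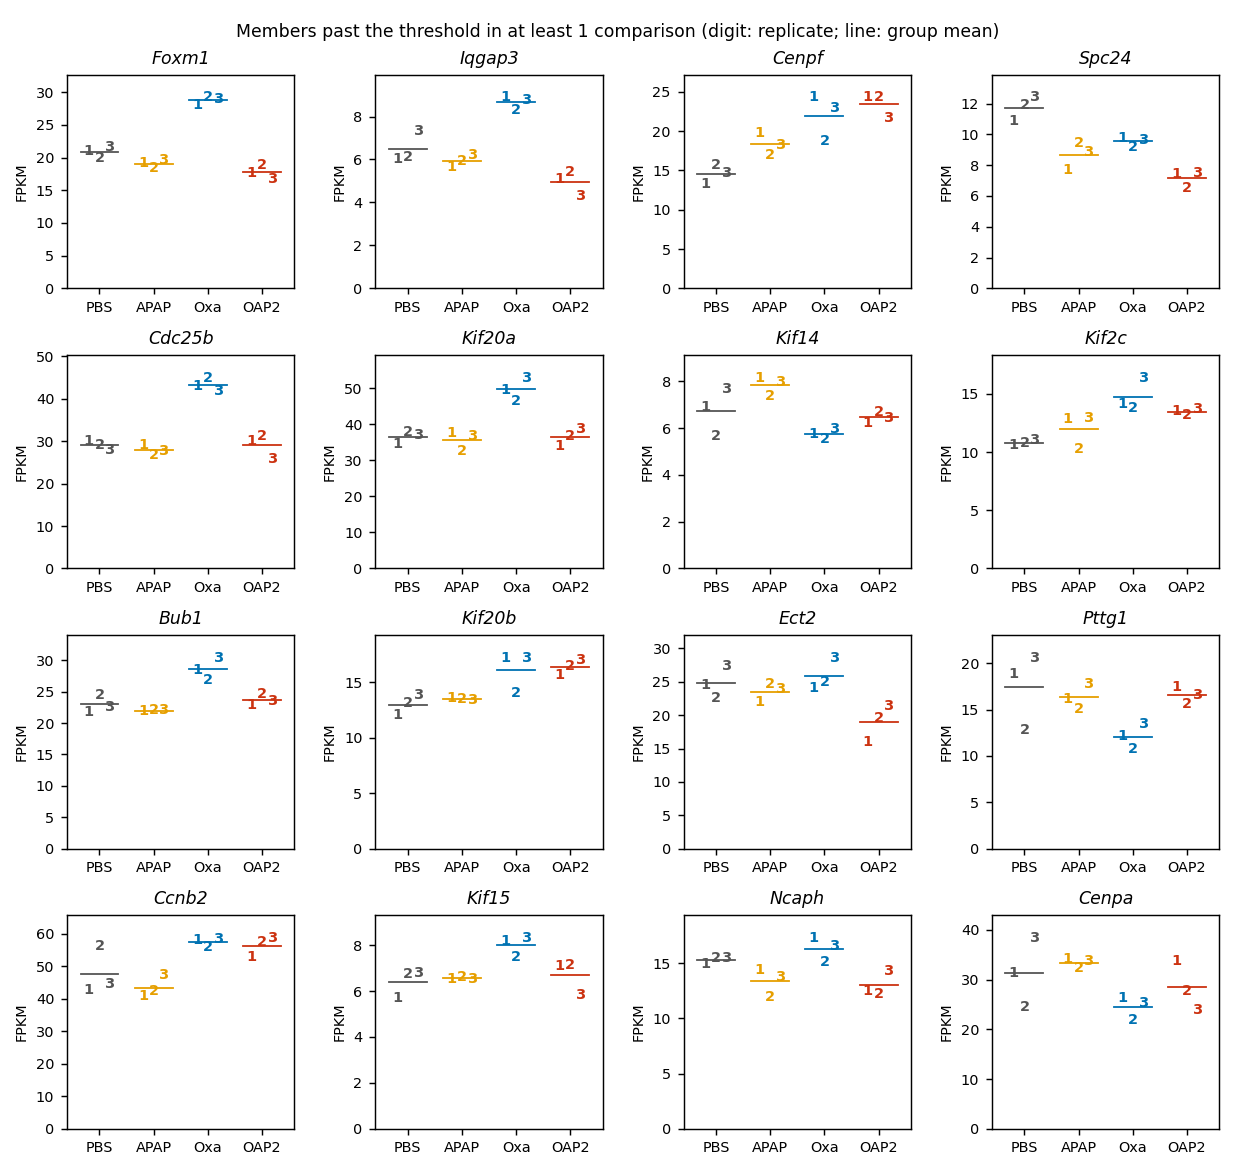
FPKM in each library of the 16 members that passed in at least 1 comparison; each digit is a replicate number and each line a group mean, with axes from 0. Oxa stands above the other groups for Foxm1, Cdc25b, Kif20a, Bub1 and Iqgap3, OAP2 below them for Spc24 and Ect2, and PBS 2 apart from PBS 1 and PBS 3 for Ccnb2 and Pttg1.

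In all, 16 members passed in at least 1 comparison and 39 in none. How many of all genes passed in at least 1 comparison was not counted, so this number has no background beside it. In single comparisons 0.0166% (APAP against PBS) to 15.4% (Oxa against APAP) of all genes passed. How often a left-out library ended the calls of all genes was not counted either. Of the 31 calls, 15 were ended by no single left-out library: Cenpf and Spc24 in OAP2 against PBS, Foxm1, Cdc25b, Cenpf and Kif20a in Oxa against PBS, Foxm1, Cdc25b, Kif20a and Iqgap3 in OAP2 against Oxa, and Foxm1, Cdc25b, Kif14, Kif20a and Iqgap3 in Oxa against APAP. Foxm1, Cdc25b and Kif20a are the members whose calls in all 3 comparisons with Oxa were ended by no single left-out library.

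Many promoters of the members carry the CHR element described above for genes of this programme. The members were picked by name as such genes, so a high share is a description and no separate result of these data. RefSeq promoters of GRCm38.p6, from 250 bases before to 50 after the start, were found for 46 of the 55 members, as 49 of 32851 promoters. The CHR element, TTTGAA or TTCGAA on either strand, occurred in 41 of the 49 (83.7%), against 19.2% of all promoters, and within 50 bases of the start in 36 (73.5%), against 5.31%. The CCAAT box, CCAAT on either strand and the binding site of NF-Y, occurred in 36 (73.5%), against 37.4%, and both motifs together in 34 (69.4%), against 7.52%. An E2F motif, TTTGGCGC or TTTCGCGC on either strand, occurred in 3 (6.12%), against 0.813%. No motif contains another, and TTTGAA and TTCGAA are counted as the same element.

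The CHR element was found in 12 of 14 promoters (85.7%) of members that passed in any comparison and in 29 of 35 (82.9%) of those that passed in none, and near the start 10 of 14 (71.4%) against 26 of 35 (74.3%). CCAAT boxes were found in 8 of 14 (57.1%) against 28 of 35 (80.0%). No test was made of these differences. Foxm1, Spc24 and Kif20a are not in the promoter table.

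The elements of the 4 members with the smallest p for which the table's start lay within 100 bases of the deposited gene's start are shown to let their letters and place be compared. Each is 16 bases in the direction of the gene, GRCm38.p6, with the element in capitals:
Iqgap3, chr3:88082027-88082042, plus strand: ggagaTTCAAAactgg
Cenpf, chr1:189688074-189688089, minus strand: ggcagTTTGAAtcgct
Cdc25b, chr2:131186950-131186965, plus strand: tatttTTCGAAtatat
Bub1, chr2:127831835-127831850, minus strand: gggaaTTCGAAtcgcc
The element begins 19 bases before the start in Iqgap3, where it reads on the opposite strand, and at base 3, 8 and 15 of the transcript in Cenpf, Cdc25b and Bub1. Cdc25b and Bub1 carry the TTCGAA form, and Iqgap3 and Cenpf the TTTGAA form. The 4 members were picked by their p in these data, so their changes cannot be set against the form of the element.

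The 250 bases upstream of the start show where the CCAAT boxes lie relative to it in Cenpf, Cdc25b and Bub1. They are given in the direction of the gene, with CCAAT (or ATTGG, the same box on the other strand) in capitals. Iqgap3 has no CCAAT box in its promoter window. Its upstream bases are not printed, since the table's start lies 80 bases inside the deposited gene, which also bears on the place given for its CHR element.
Cenpf, chr1:189688087-189688336, minus strand: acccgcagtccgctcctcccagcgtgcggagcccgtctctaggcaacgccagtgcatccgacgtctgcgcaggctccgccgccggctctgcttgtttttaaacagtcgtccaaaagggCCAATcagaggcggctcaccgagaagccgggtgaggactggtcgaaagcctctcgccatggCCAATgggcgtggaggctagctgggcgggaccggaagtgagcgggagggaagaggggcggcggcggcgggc
Cdc25b, chr2:131186698-131186947, plus strand: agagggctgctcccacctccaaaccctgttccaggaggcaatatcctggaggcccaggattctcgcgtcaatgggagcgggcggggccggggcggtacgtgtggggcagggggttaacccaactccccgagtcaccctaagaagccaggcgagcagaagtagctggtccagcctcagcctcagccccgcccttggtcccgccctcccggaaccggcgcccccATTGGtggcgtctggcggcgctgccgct
Bub1, chr2:127831860-127832109, minus strand: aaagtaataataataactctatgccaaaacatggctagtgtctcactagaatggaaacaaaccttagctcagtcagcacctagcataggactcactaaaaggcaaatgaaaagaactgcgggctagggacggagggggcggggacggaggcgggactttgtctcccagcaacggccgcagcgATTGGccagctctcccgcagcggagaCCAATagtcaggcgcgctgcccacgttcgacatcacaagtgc
Cenpf has a box 132 and another 71 bases before the start, Bub1 68 and 42 bases before, and Cdc25b a single box 28 bases before, which reads ATTGG. A match of letters is a description and not a bound site.

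Other mitosis genes, a list of 66 tested genes include the shugoshins and further centromere proteins. In Oxa against PBS 6 rose and 0 fell (9.09%, against 10.1% of all genes), among them Sgo2a, a protector of centromeric cohesion (0.56 ± 0.09, adjusted p = 0.00372), the spindle protein Dlgap5 (0.53 ± 0.10, adjusted p = 0.00815) and the spindle pole protein Numa1 (0.50 ± 0.11, adjusted p = 0.0137). In OAP2 against PBS 2 rose (3.03%, against 5.25%), Sgo2a (0.51 ± 0.09, adjusted p = 0.00673) and the F-box cyclin Ccnf (0.48 ± 0.12, adjusted p = 0.0346). In OAP2 against Oxa 4 fell and 0 rose (6.06%, against 12.9%), led by the checkpoint factor Trip13 (-0.48 ± 0.13, adjusted p = 0.0278), and in Oxa against APAP 15 rose and 0 fell (22.7%, against 15.4%), led by Dlgap5 (0.60 ± 0.10, adjusted p = 0.00306). The median over the list was 0.13 in Oxa against PBS and 0.06 in OAP2 against PBS. No gene of it passed in APAP against PBS (4 at an unadjusted p under 0.05) or in OAP2 against APAP (12), both in edgeR. Without PBS 2 the counts were 22 higher and 4 lower in Oxa against PBS, 9 and 3 in OAP2 against PBS, 1 and 15 in OAP2 against Oxa, and 8 and 0 in OAP2 against APAP, where 25.5%, 16.4%, 22.8% and 7.61% of all genes passed.

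Of 16 genes of the anaphase-promoting complex and its partners, which target securin and cyclin B for destruction, Anapc2 rose in Oxa over PBS (0.50 ± 0.12, adjusted p = 0.0162), and Anapc4 fell in OAP2 (-0.41 ± 0.09, adjusted p = 0.0208). In OAP2 against Oxa 1 rose and 4 fell (31.2%, against 12.9% of all genes), and in Oxa against APAP 3 rose (18.8%, against 15.4%). Of 9 cohesin genes, whose ring holds sister chromatids together, 0 passed in 5 comparisons in edgeR (at an unadjusted p under 0.05: 2 in OAP2, 3 in Oxa and 0 in APAP against PBS, and 1 against Oxa and 2 against APAP for OAP2). Pds5a fell in Oxa against APAP (-0.30 ± 0.08, adjusted p = 0.0218). Without PBS 2, 3 of the cohesin genes rose in Oxa and 2 in OAP2 over PBS, where 25.5% and 16.4% of all genes passed.

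Of 24 regulators of cell cycle transcription, 4 rose and 1 fell in Oxa against PBS (20.8%, against 10.1% of all genes), and 1 rose and 6 fell in OAP2 against Oxa (29.2%, against 12.9%). The CDK inhibitor gene Cdkn1a fell in Oxa against PBS (-0.74 ± 0.18, adjusted p = 0.0229) and was higher in OAP2 than in Oxa (0.75 ± 0.18, adjusted p = 0.0187). Rbl2, the pocket protein of the repressor complex at CHR elements, was lower in OAP2 than in Oxa (-0.85 ± 0.15, adjusted p = 0.00372), as was E2f1 (-0.66 ± 0.13, adjusted p = 0.00603). Rbl2 was low, with a mean FPKM of 1.27 in PBS, 1.14 in APAP, 1.84 in Oxa and 1.01 in OAP2. It was also higher in Oxa than in PBS (0.54 ± 0.15, adjusted p = 0.0404) and than in APAP (0.65 ± 0.15, adjusted p = 0.0137). In OAP2 against PBS Rb1 rose (0.63 ± 0.15, adjusted p = 0.0290) and Cdkn2c fell (-0.65 ± 0.13, adjusted p = 0.0104). In Oxa against APAP 6 rose and 1 fell (29.2%, against 15.4%). Without PBS 2 the counts were 11 higher and 3 lower in Oxa against PBS, 3 and 2 in OAP2 against PBS, 2 and 11 in OAP2 against Oxa, and 9 and 2 in Oxa against APAP. Of all genes 25.5%, 16.4%, 22.8% and 27.7% passed in these refits.

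Genes of DNA replication and the G1/S step, 38 in number, act before mitosis in the cycle. In OAP2 against Oxa 18 fell and 0 rose (47.4%, against 12.9% of all genes), with a median of -0.50, led by the chromatin assembly factor Chaf1a (-0.63 ± 0.09, adjusted p = 0.000734), the polymerase gene Pola1 (-0.56 ± 0.09, adjusted p = 0.00230) and the cyclin Ccnd1 (-0.71 ± 0.12, adjusted p = 0.00253). In Oxa against APAP 18 rose and 0 fell (47.4%, against 15.4%), with a median of 0.39, led by Rfc3 (1.09 ± 0.18, adjusted p = 0.00294). In Oxa against PBS 5 rose (13.2%, against 10.1%), and in OAP2 against PBS 5 fell (13.2%, against 5.25%), Ccnd1 among them (-0.60 ± 0.12, adjusted p = 0.0129). The medians there were 0.25 and -0.19. Without PBS 2 these counts were 21 rises and 0 falls, and 2 rises and 6 falls, where 25.5% and 16.4% of all genes passed. The difference between the replication list and the mitotic members was not tested. The mitotic members had medians of 0.04, 0.00 and -0.02 in Oxa against PBS, OAP2 against PBS and OAP2 against Oxa.

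**Figure D4:**
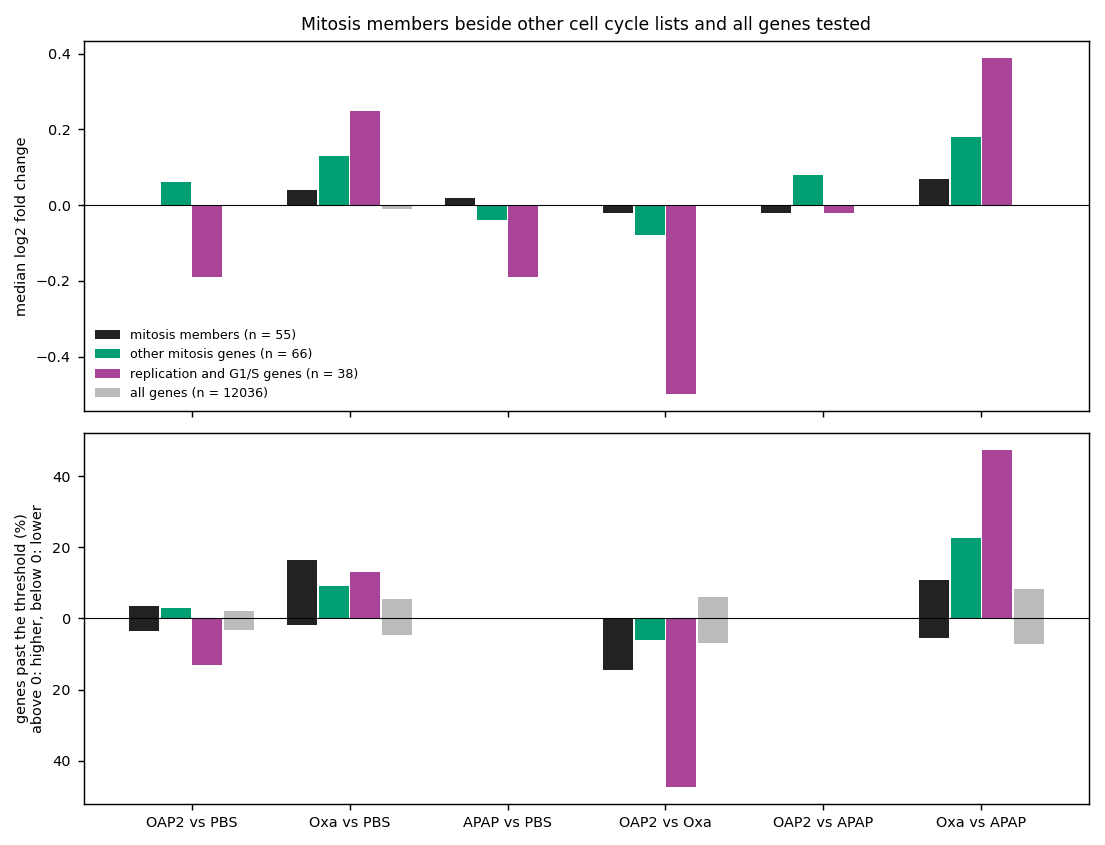
Median log2 fold change (upper panel) and percent of genes past the threshold, higher above 0 and lower below 0 (lower panel), for the 55 members, 66 other mitosis genes, 38 replication and G1/S genes and all 12036 genes tested, in the 6 comparisons. The replication list reaches a median of -0.50 in OAP2 against Oxa and 0.39 in Oxa against APAP, where the mitotic members stand at -0.02 and 0.07.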

How the data were processed

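Per the labels, poly(A) RNA of 4T1 cells was sequenced in pairs from strand-marked libraries. Build mm9 and the tools StringTie 2.1.6, HISAT2 2.2.1, cutadapt 1.9, edgeR and DESeq2 are listed in the submitters' processing notes, without roles. Positions in the table match GRCm38 for 52 of the 55 members and are given so. Per the file headers, the table has FPKM values, which the authors adjusted for transcript length and library size. It also has a deposited count per gene, read here as an estimated count (expected counts in whole numbers, not scaled by the authors). Columns named CON were taken as PBS, the only group without a drug, which is an inference.

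The 12036 genes that reached FPKM 1 in 3 or more of the 12 libraries were tested with edgeR 4.0.16 in R 4.3.3: TMM scaling, 1 mean per group over all 12 libraries, glmQLFit and glmQLFTest, Benjamini-Hochberg adjustment over all genes. The common biological coefficient of variation was 18.1%, and depth was 64071751 to 71500487 counts per library. The SE is the fold change over the square root of F, an approximation. Alternatives used DESeq2 1.42.0, limma 3.58.1, other scalings and filters, a replicate block and left-out libraries.

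Members, gene lists and the naming rule were chosen with earlier results of these data known. Values per library are given for members that passed in any comparison and, of a role without such a member, for the one with the smallest p. Of other lists, at most 3 genes per comparison are named, by smallest p. The condition that a promoter's start lie within 100 bases of the deposited start was added after the data were seen.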

Additional observations from a re-analysis of the deposited data

How the results depend on the processing

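For members past the threshold, in the order OAP2 against PBS, Oxa against PBS, APAP against PBS, OAP2 against Oxa, OAP2 against APAP and Oxa against APAP, the counts were 4, 10, 0, 8, 0 and 9. Leaving out 1 library at a time gave 2 to 12, 5 to 19, 0, 4 to 11, 0 to 4 and 5 to 15, the highest without PBS 2 wherever the count varied; without PBS 2 the shares of all genes were 16.4%, 25.5%, 0.0249%, 22.8%, 7.61% and 27.7%. The voom fit with sample quality weights gave 17, 29, 1, 16, 8 and 26, where 23.6%, 36.5%, 0.872%, 28.9%, 13% and 39.2% of all genes passed. Leaving out PBS 2 and OAP2 3 together, an alternative chosen after seeing the data, gave 14, 23, 0, 16, 9 and 25, with 23.6%, 35.4%, 0.598%, 28.5%, 11.9% and 37.1% of all genes. Fitting only the 6 libraries compared gave 0 in OAP2 against PBS, 6 in Oxa against PBS and 23 in Oxa against APAP (0.316%, 4.35% and 36.6% of all genes). Without a filter on low values the count was 2 in OAP2 against PBS and 5 in OAP2 against Oxa (1.25% and 3.56% of a larger set of genes). In OAP2 against PBS, limma on log2(FPKM + 1) and on log2(FPKM + 0.1) both gave 2 (4.52% and 4.12% of all genes). The DESeq2 Wald test gave 8 there (10.5% of all genes) and 1 in APAP against PBS (0.806%). The cause of these differences was not tested. With DESeq2 size factors, upper quartile factors or the higher FPKM minimum of 5, every count stayed within 1.5 times the one above. No fold change of a called member changed sign in any of the 23 alternatives of its comparison, and the median over the members was never beyond 0.10 in size. The replicate numbers gave no pairing: libraries of equal number, 18 pairs across groups, deviated from their groups with correlations from -0.152 to 0.155. With the replicate number as a block the counts were 2, 8, 0, 8, 0 and 9. Of all genes 4.26%, 9.11%, 0.0249%, 11.8%, 0.249% and 13.9% passed in that fit. The lowest mean count of a member was 1273, and whether depth or the 3 libraries per group limit the calls was not tested.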

Other observations

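Over the 12 libraries, the mean log2 CPM of the 55 members was most alike in pattern to Mpp5 (Pearson r = 0.916), Rfc4 (0.908), Gtf2h2 (0.861), St13 (0.858) and Esco2 (0.841), members left out. This is a description over 12 libraries that share groups and sequencing, with the 5 genes chosen as the highest of all genes tested. Rfc4 is a subunit of the clamp loader of DNA replication and Esco2 an acetyltransferase that sets up sister chromatid cohesion.

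In OAP2 3, the library with the second lowest quality weight, 6 members lay more than 1.25 times above the mean of OAP2 1 and OAP2 2, among them Spc25 (1.43), Cdk1 (1.38) and Aurka (1.36), and 1 lay below 0.8 times that mean, Cenpa (0.773). These genes were chosen after their values were seen.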
